A study of Mus musculus with 22 samples.

Results

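The genes described here code for the core of the splicing machinery and for the proteins that steer it. They were the genes of the array whose name in the deposited table began with Hnrnp, Srsf or the older Sfrs with a number, Sf3a or Sf3b with a number, Snrp, or U2af. The rule found 62 genes among the 34378 gene names of that table, all of them among the 18062 named genes with a usable probe. They comprised 12 Snrp genes, 8 SF3A and SF3B genes, 3 U2AF genes, 11 SR genes, 9 genes that carry an old Sfrs name but now have another symbol, and 19 hnRNP genes. The renamed genes, called SR-related here, were Akap17b, Clasrp, Pnisr, Scaf11, Scaf4, Sfswap, Srek1, Srek1ip1 and Sugp2. Genes of the same machinery under other names, such as Snrnp70, were outside the rule.

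Introns are removed from pre-mRNA by the spliceosome, which is assembled from small nuclear ribonucleoprotein particles (snRNPs). The Snrp genes code for the ring of Sm proteins that most of these particles share and for proteins specific to the U1 and U2 particles. The U2AF proteins bind the 3′ splice site and the SF3A and SF3B complexes hold the U2 particle on the branch point. SR proteins mostly bind exons and favour their inclusion, and hnRNP proteins coat nascent RNA and often act against it. Both classes also take part in mRNA export, stability and translation, and the alternative splicing of sarcomere genes is a known part of heart muscle development.

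RNA came from cultured cardiac fibroblasts (CF) of CD1 mice of the aMHC-GFP genotype throughout, in which a cardiomyocyte myosin promoter drives green fluorescent protein. Untransduced cells were collected at day 0, and cells given a retrovirus were collected at days 3, 5, 7, 10 and 14. The virus carried either Mef2c, Gata4 and Tbx5 as 1 polycistronic transgene (MGT), which turns part of the fibroblasts into induced cardiomyocytes, or lacZ as the control. Each of the 11 groups had 2 one-colour arrays, and the labels do not say whether these came from separate cultures, so the p-values measure the spread between these arrays, which may be technical. No sorting of the cells was stated for the arrays, so each value is a mean over reprogrammed and other cells, and fewer cells of a type cannot be told apart from less RNA per cell.

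Every array read 59305 non-control spots, and no spot was saturated. The share of spots well above background was 48.4% on the second day 14 lacZ array and up to 71.0% elsewhere, and the 75th percentile of the signal on that array was 729 against at least 1285 on the others. Between replicates the median absolute log2 difference over the 62 genes was 0.198 in day 14 lacZ and between 0.0369 and 0.103 in the other groups. Over all genes it was 0.264 in day 14 lacZ, 0.185 in day 10 lacZ and at most 0.122 in the other groups. The 2 day 10 lacZ arrays were apart in the mean level of 9 macrophage markers, 1.30 and 2.92. Their mean level of 12 markers of proliferating cells was 1.324 and 2.005. All 10 fibroblast markers (such as Col1a1 and Pdgfra) were well above background on every array. The 10 cardiomyocyte markers were called higher with MGT in the averaged comparison in 10 of 10 cases. The transgene check was Mef2c, whose level was 2.84 and 2.95 on the day 3 MGT arrays and -3.89 and -3.88 on the day 3 lacZ arrays. Days 3 and 5 were hybridised on 1 slide and days 7 and 10 on another, while day 0 and day 14 lacZ shared a slide and day 14 MGT had a slide of its own. Slide and vector therefore cannot be told apart at day 14, and slide and time cannot be told apart between day 0 and day 3. Levels are given as log2 of the signal relative to the 75th percentile of the same array, so that 0 is a signal equal to that percentile.

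The first question was how the splicing genes stood in the transduced cultures relative to the untransduced fibroblasts. Most of them were lower from day 3 on, with either virus. In lacZ at day 3, 44 of the 62 genes fell and 4 rose, where 29% of all genes tested fell and 28.8% rose. In MGT at day 3, 44 fell and 4 rose, against a background of 33.1% and 29.3%. At day 14 the counts were 49 lower and 6 higher in lacZ (background 33.4% and 35.5%) and 51 lower and 6 higher in MGT (background 37.4% and 33.1%). The median difference of the 62 genes was -0.49 and -0.57 at day 3 and -0.71 and -0.85 at day 14, for lacZ and MGT in this order, and over all genes tested the 4 medians lay between -0.05 and 0.06. These 4 comparisons share the day 0 arrays. The comparison of lacZ at day 14 with day 0 lies within 1 slide. It called 55 members with both day 14 lacZ arrays and 55 without the second.

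**Figure D1:**
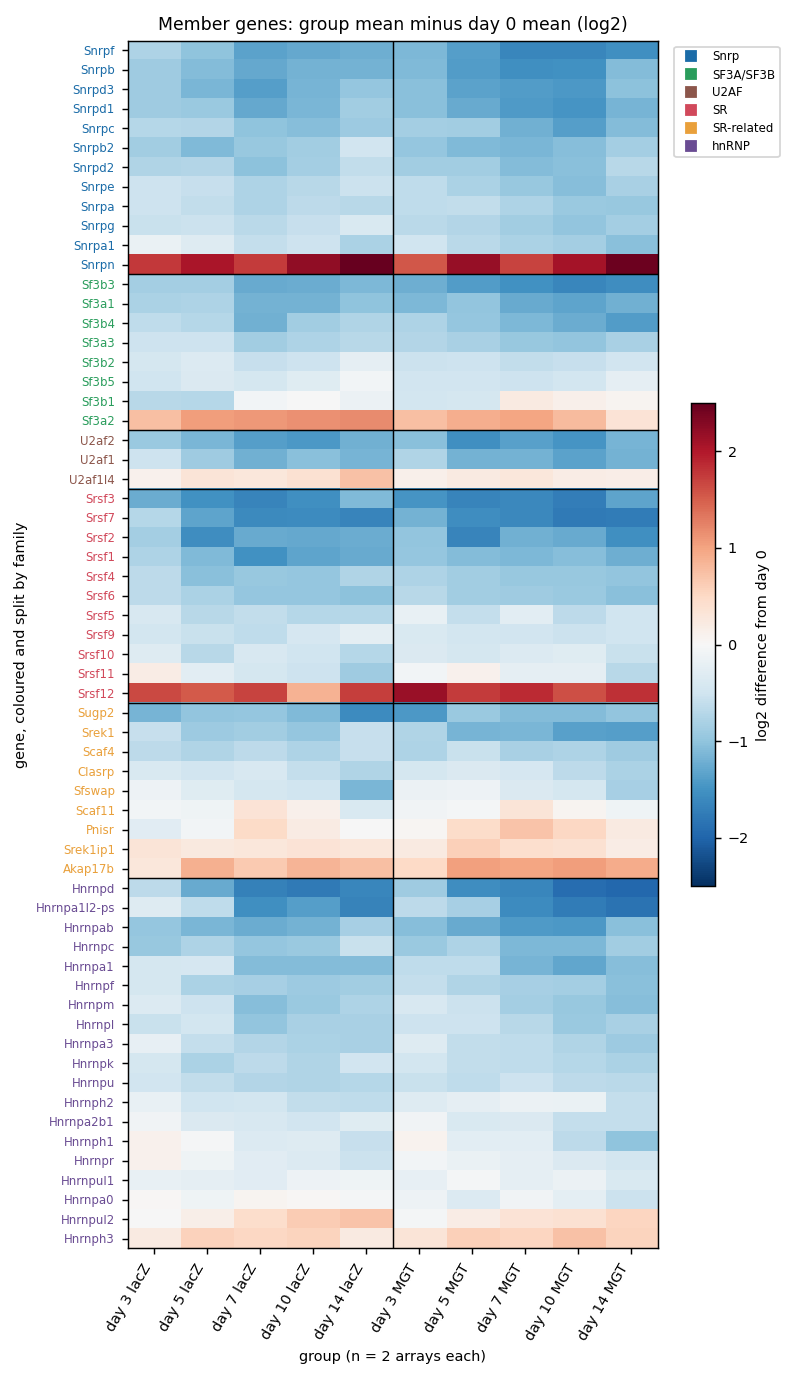
Mean log2 difference from day 0 of each of the 62 genes (rows, split by family) in the 10 later groups (columns, 2 arrays each), on a colour scale from -2.5 to 2.5. Most rows are blue in all columns of both arms, and Snrpn and Srsf12 are the darkest red rows.

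The arrays of day 0 stood clear of the rest for most of these genes. Of the 60 members with a value on every array, 41 had both day 0 arrays above all 20 later arrays, a pattern found in 22.2% of all genes with a value on every array. Another 6 members had both day 0 arrays below all later ones (18.6% of all genes): Akap17b, Hnrnph3, Sf3a2, Snrpn, Srsf12 and U2af1l4. By family, the first pattern held for 11 of 12 Snrp genes, 8 of 10 SR genes, 12 of 19 hnRNP genes, 4 of 7 SF3A and SF3B genes, 4 of 9 SR-related genes and 2 of 3 U2AF genes. Srsf7 and Sf3b3 each lacked 1 day 0 array, whose spot was marked as an outlier, and their day 0 value rests on 1 array. In all 4 comparisons with day 0, 40 of the 62 genes fell and 3 rose (Akap17b, Snrpn and Srsf12). The 4 comparisons share the day 0 arrays, and the share of all genes called in all 4 was not counted. It cannot exceed the 29% that fell and the 28.8% that rose in lacZ at day 3.

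Within the Snrp family, Snrpb and Snrpn went opposite ways. Snrpb codes for the widely made SmB protein of the Sm ring, and Snrpn, an imprinted gene expressed from the paternal copy, codes for its close relative SmN, which is known from brain and heart. The level of Snrpb was 3.43 and 3.49 at day 0. In lacZ it was 2.57 and 2.58 at day 3, 2.39 and 2.38 at day 5, 2.18 and 2.17 at day 7, 2.27 and 2.28 at day 10, and 2.51 and 2.04 at day 14. In MGT it was 2.40 and 2.30 at day 3, 2.02 and 2.10 at day 5, 1.90 and 1.96 at day 7, 1.99 and 1.92 at day 10, and 2.36 and 2.38 at day 14. All 20 later arrays lay below both day 0 arrays. The fall of Snrpb was 0.88 ± 0.11 (log2 difference of -0.88, SE, 2 arrays a group) in lacZ at day 3 (adjusted p = 1.34e-05) and the difference was -1.09 ± 0.11 in MGT at day 14 (adjusted p = 9.31e-07).

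Snrpn had a level of -2.06 and -2.18 at day 0. In lacZ it was -0.30 and -0.41 at day 3, -0.08 and -0.09 at day 5, -0.37 and -0.35 at day 7, 0.03 and 0.15 at day 10, and 0.68 and 0.45 at day 14. In MGT it was -0.62 and -0.52 at day 3, -0.05 and 0.17 at day 5, -0.45 and -0.42 at day 7, -0.05 and -0.01 at day 10, and 0.35 and 0.32 at day 14. Day 14 was the highest time point in both arms. The rise was 1.76 ± 0.09 in lacZ and 1.55 ± 0.09 in MGT at day 3, and 2.68 ± 0.09 and 2.46 ± 0.09 at day 14, which is 6.43-fold and 5.49-fold (adjusted p = 2.01e-11 and 3.2e-11). A second probe, at base 411, rose too, by 1.98 in lacZ at day 3 and 2.72 at day 14, while the remaining probe, at base 1978, was not well above background on either day 0 array. The probe used, at base 572, lies at chr7:67132330-67132389 of the mm9 build, the build of the array's annotation.

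**Figure D2:**
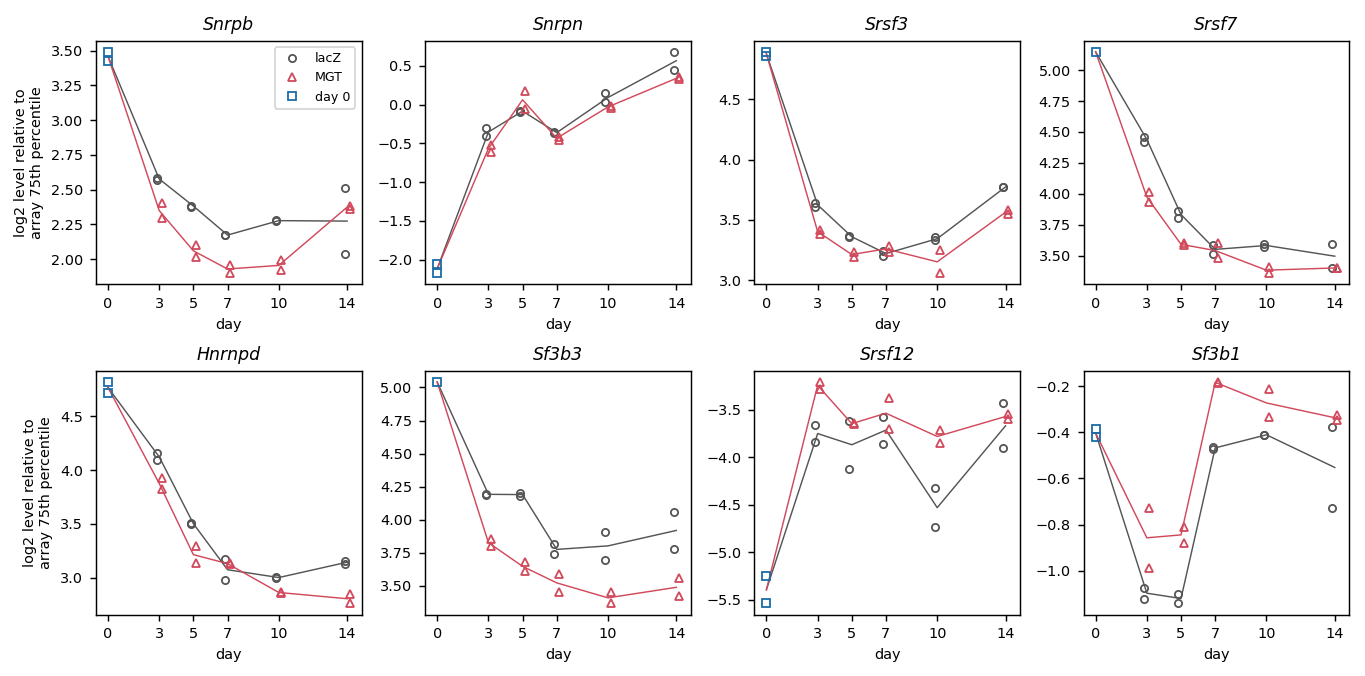
Level of 8 splicing genes on each array by day (log2 signal relative to the 75th percentile of the array), with squares for day 0, circles for lacZ and triangles for MGT, lines through the means of 2 arrays and a separate vertical axis for each gene. Snrpb, Srsf3, Srsf7, Hnrnpd and Sf3b3 are highest at day 0, Snrpn and Srsf12 are lowest there, and Sf3b1 is lowest at days 3 and 5.

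Most other Snrp genes moved in the direction of Snrpb. Of the 12 genes, 10 fell and 1 rose in lacZ at day 3, and 11 fell and 1 rose in each of the other comparisons with day 0. Across these comparisons 29% to 37.4% of all genes fell and 28.8% to 35.5% rose. Snrpf, a protein of the Sm ring, had a level of 4.69 on both day 0 arrays and of 3.40 and 3.52 in lacZ and 3.13 and 3.19 in MGT at day 14. Its difference from day 0 was -1.23 ± 0.09 in lacZ (adjusted p = 2.79e-08) and -1.53 ± 0.09 in MGT (adjusted p = 2.61e-09). Snrpa1, which codes for a protein of the U2 particle, had a difference of -0.17 in lacZ at day 3 that did not pass the test (adjusted p = 0.126) and of -0.78 at day 14 that did.

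Among the SR genes, Srsf3 and Srsf7, whose proteins shuttle between nucleus and cytoplasm and couple splicing to mRNA export, were among the largest falls. Srsf3 had a level of 4.86 and 4.89 at day 0, 3.64 and 3.61 in lacZ and 3.42 and 3.39 in MGT at day 3, and 3.77 and 3.77 in lacZ and 3.55 and 3.58 in MGT at day 14. Its lowest level in each arm was between these times, 3.20 on a lacZ array at day 7 and 3.06 on an MGT array at day 10. The difference of Srsf3 from day 0 was -1.25 ± 0.06 in lacZ at day 3, the largest fall of any member in that comparison (2.38-fold, adjusted p = 1.58e-09), and -1.47 ± 0.06 in MGT (2.77-fold, adjusted p = 1.98e-10). The level of Srsf7 was 5.15 on the single usable day 0 array, 4.46 and 4.42 in lacZ and 4.02 and 3.93 in MGT at day 3, and 3.40 and 3.59 in lacZ and 3.40 and 3.40 in MGT at day 14. The day 14 difference was -1.65 ± 0.08 in lacZ (adjusted p = 3.94e-09) and -1.75 ± 0.08 in MGT (adjusted p = 1.88e-09).

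Srsf1, Srsf2, Srsf4 and Srsf6 also fell in all 4 comparisons, by 0.77 in lacZ at day 3 and 1.22 in MGT at day 14 for Srsf1 and by 0.65 and 1.05 for Srsf6. Srsf2 showed a difference of -0.85 ± 0.16 in lacZ at day 3 (adjusted p = 0.000464) and of -1.54 ± 0.16 in MGT at day 14 (adjusted p = 1.23e-06). Srsf5 fell in lacZ at both times and in MGT at day 14, and its difference in MGT at day 3 was -0.18 (adjusted p = 0.105). Srsf12 was the SR gene that rose. Its probe was dim: the level was -5.25 and -5.54 at day 0, where 1 of 2 arrays was well above background, and between -4.73 and -3.21 on the later arrays. The rise of Srsf12 was 1.64 ± 0.20 in lacZ and 2.15 ± 0.20 in MGT at day 3 (adjusted p = 1.28e-05 and 7.3e-07).

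More hnRNP genes were called at day 14 than at day 3. Of 19 genes, 11 fell in lacZ and 12 in MGT at day 3, with none called higher (medians of -0.32 and -0.39). At day 14, 15 and 17 fell, with 1 and 2 called higher (medians of -0.64 and -0.82). Of all genes 29% and 33.1% fell at day 3 and 33.4% and 37.4% at day 14, for lacZ and MGT in this order. The shares that rose were 28.8% and 29.3% at day 3 and 35.5% and 33.1% at day 14. Whether the hnRNP genes differ between the 2 times was not tested. Hnrnpd codes for a protein that binds AU-rich elements and controls mRNA decay. Its level was 4.72 and 4.82 at day 0, 4.16 and 4.09 in lacZ and 3.83 and 3.93 in MGT at day 3, and 3.16 and 3.13 in lacZ and 2.85 and 2.76 in MGT at day 14. The day 14 groups did not overlap with each other or with earlier lacZ arrays up to day 5. The difference of Hnrnpd from day 0 was -1.63 ± 0.07 in lacZ (adjusted p = 3.77e-10) and -1.96 ± 0.07 in MGT at day 14 (3.90-fold, adjusted p = 4.62e-11), the largest fall of any member there.

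Hnrnpa1, a repressor of exon inclusion, had a difference of -0.43 ± 0.09 in lacZ at day 3 and of -1.06 ± 0.09 in MGT at day 14 (adjusted p = 0.000949 and 1.51e-07). The probe named Hnrnpa1l2, now annotated as the pseudogene Hnrnpa1l2-ps, showed -0.32 and -1.84, and as a near-identical copy of Hnrnpa1 its signal may be shared with it. Hnrnpc, which binds uridine-rich tracts of nascent RNA, fell by 0.95 in lacZ at day 3, and its day 14 differences were -0.55 in lacZ and -0.87 in MGT. Hnrnpab fell by 0.97 in lacZ at day 3 and 1.04 in MGT at day 14. Hnrnpu and Hnrnpl fell in all 4 comparisons, with differences between -0.48 and -0.71 for Hnrnpu and between -0.52 and -0.82 for Hnrnpl. Hnrnpa2b1 showed -0.08 at day 3 in both arms, which did not pass the test, and -0.31 in lacZ (-0.18 without the first day 14 lacZ array, adjusted p = 0.0109) and -0.60 in MGT at day 14, which did. Hnrnpul2 rose at day 14, by 0.71 ± 0.06 in lacZ and 0.55 ± 0.06 in MGT (adjusted p = 1.37e-07 and 1.66e-06), and Hnrnph3 rose in MGT at day 14 by 0.56 ± 0.15 (adjusted p = 0.00557).

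**Figure D3:**
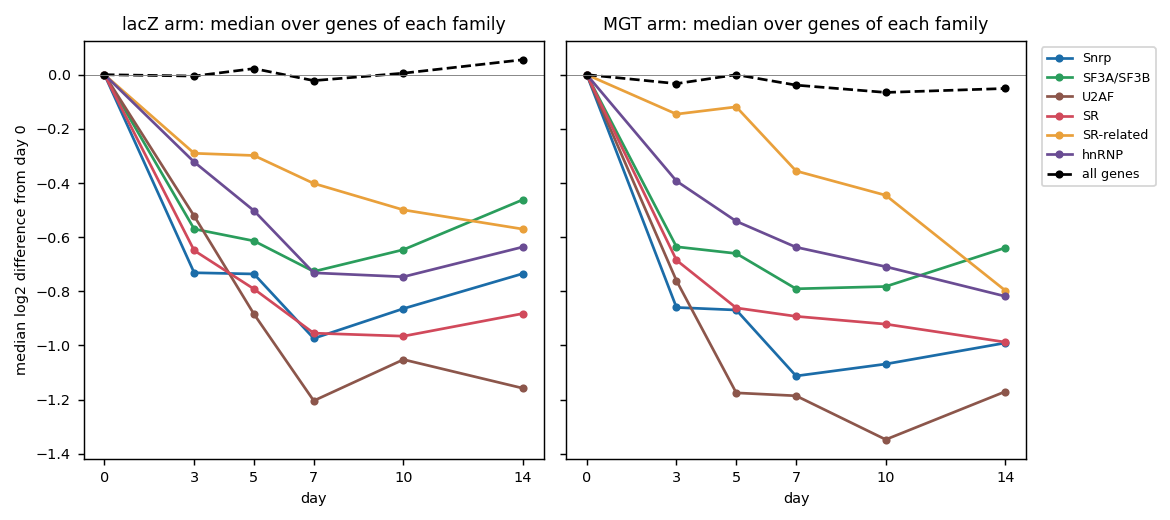
Median log2 difference from day 0 over the genes of each family by day, for lacZ (left) and MGT (right), with all tested genes as a dashed line and day 0 set to 0. The Snrp and SR medians are at -0.73 and -0.65 by day 3 in lacZ, the hnRNP median is at -0.32 there and -0.73 at day 7, and the line of all genes stays between -0.07 and 0.06.

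Of the branch point and 3′ splice site factors most fell, and Sf3a2 rose in 3 of the 4 comparisons. Sf3b3 had a level of 5.04 on the usable day 0 array, 4.20 and 4.19 in lacZ and 3.80 and 3.86 in MGT at day 3, and 4.06 and 3.78 in lacZ and 3.56 and 3.42 in MGT at day 14. Its difference from day 0 was -0.85 ± 0.12 in lacZ and -1.21 ± 0.12 in MGT at day 3, and -1.55 ± 0.12 in MGT at day 14 (adjusted p = 1.31e-07). Sf3b1, the subunit that contacts the branch point and is often mutated in leukaemia, fell at day 3 only among the times tested: its level was -0.42 and -0.39 at day 0, -1.07 and -1.12 in lacZ and -0.99 and -0.73 in MGT at day 3, and -0.37 and -0.73 in lacZ and -0.35 and -0.32 in MGT at day 14. The difference was -0.69 ± 0.10 in lacZ at day 3 (adjusted p = 5.96e-05) and -0.15 at day 14 (adjusted p = 0.204). Whether the differences at day 3 and day 14 differ was not tested.

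Sf3a2 went against the other SF3A genes. Its level was 3.99 and 4.14 at day 0 and between 4.71 and 5.80 on all lacZ arrays, and the difference was 0.75 ± 0.24 in lacZ at day 3 (adjusted p = 0.0148) and 1.18 ± 0.24 in lacZ at day 14 (adjusted p = 0.000571). The latter was 0.64 when the second lacZ array of that day was left out (adjusted p = 0.00038). In MGT it was 0.75 at day 3 (adjusted p = 0.0144), and 0.35 at day 14, which did not pass the test (adjusted p = 0.205). U2af1 and U2af2, the small and large subunit of U2AF, fell in all 4 comparisons, by 0.52 and 0.92 in lacZ at day 3 and by 1.19 and 1.17 in MGT at day 14. U2af1l4, a shorter relative of U2af1, had a difference of 0.10 in lacZ at day 3 (adjusted p = 0.56) and rose by 0.72 ± 0.14 in lacZ at day 14 (adjusted p = 0.000374), or by 0.42 without the second lacZ array (adjusted p = 0.000368). Both day 14 lacZ arrays of Sf3a2 and of U2af1l4 were apart, 4.71 against 5.80 and 3.94 against 4.55, with the second array higher.

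Splicing genes outside the rule were counted in 5 lists chosen with these data already known. In lacZ at day 3, where 29% of all genes fell and 28.8% rose, 30 of 39 other proteins of the U snRNPs fell and 2 rose. On the same day 25 of 41 proteins of the catalytic and other steps fell and 2 rose, and 14 of 22 snRNP assembly factors fell and 1 rose. The 20 SR kinases and other SR-related proteins were nearer to all genes, with 7 lower and 3 higher (median -0.13), as were the 26 hnRNP-like RNA-binding proteins, with 11 lower and 5 higher (median -0.15). In MGT at day 14, where 37.4% of all genes fell and 33.1% rose, the numbers lower and higher were 33 and 2, 32 and 3, 18 and 1, 15 and 2, and 20 and 2 in the 5 lists in this order. Gemin5 and Gemin6, which serve the SMN complex that loads Sm proteins onto RNA, had differences of -1.68 and -1.16 in lacZ at day 14 and of -2.09 and -1.59 in MGT. Markers of proliferating cells moved with these changes in part. Their mean level was 2.59 and 2.63 on the day 0 arrays, 2.46 and 2.47 in day 3 lacZ, 1.70 and 1.88 in day 14 lacZ and 1.41 and 1.58 in day 14 MGT. Of these 12 markers 4 rose and 3 fell in lacZ at day 3, and 9 fell in lacZ and 11 in MGT at day 14, with none called higher. Of 9 macrophage markers 8 rose in lacZ and 7 in MGT at day 14. Of 10 endothelial markers 2 fell and 1 rose in lacZ at day 3, 7 fell in MGT at day 3, and 7 fell in lacZ and 8 in MGT at day 14 (medians of -2.19 and -2.31). Of 10 fibroblast markers 6 rose and 3 fell in lacZ and 2 rose and 5 fell in MGT at day 14. Of 10 cardiomyocyte markers 2 rose and 3 fell in lacZ at day 3. At day 14, 2 of them rose and 7 fell in lacZ (median -1.89), and 9 rose and 1 fell in MGT. The mean cardiomyocyte level was -0.66 and -0.83 at day 0 and -2.99 and -2.68 in day 14 lacZ. The mean endothelial level was 0.74 and 0.76 at day 0, between -1.09 and -0.69 in day 14 lacZ and between -2.40 and -1.66 in day 14 MGT, and 8 or more of the 10 were above background on each of these arrays. The part of other cell types and of proliferation in the changes of the splicing genes was not tested.

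Promoters were set beside these changes because so many members moved together. Of the 62 genes 54 had an entry in the RefSeq promoter table (GRCm38.p6 build, 250 bases before to 50 after the start), and each window was searched on both strands. The ETS core motif CCGGAAG was present in 18 of the 54 members (33.3%), in 15.9% of all genes tested that had an entry, and in 9.93% of all genes of the table. It was present in 14 of the 35 matched members that fell in all 4 comparisons with day 0 and in 0 of the 3 that rose. The NRF1 core motif GCATGCG, which on the other strand overlaps itself in the palindrome around it, was present in 6 of 54 members, in 5.98% of genes tested and in 4.01% of the table. GGGCGG, the GC box, was found in 70.4% of members and 59% of genes tested, and TATAAA in 14.8% and 11.5%. A match is a description of letters in a window and was not tested. The 200 bases before the start are given below for Hnrnpd, Sf3a1, Srsf3 and Srsf7, 4 genes that fell, and for Srsf12 and 2 of the 4 listed starts of Snrpn, which rose. Capitals mark CCGGAAG or GCATGCG on either strand.
Hnrnpd promoter, chr5:99978939-99979138, minus strand: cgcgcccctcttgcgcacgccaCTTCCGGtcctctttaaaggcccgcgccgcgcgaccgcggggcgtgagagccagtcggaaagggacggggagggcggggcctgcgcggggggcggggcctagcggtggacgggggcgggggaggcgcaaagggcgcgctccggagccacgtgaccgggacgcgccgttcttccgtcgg
Sf3a1 promoter, chr11:4160154-4160353, plus strand: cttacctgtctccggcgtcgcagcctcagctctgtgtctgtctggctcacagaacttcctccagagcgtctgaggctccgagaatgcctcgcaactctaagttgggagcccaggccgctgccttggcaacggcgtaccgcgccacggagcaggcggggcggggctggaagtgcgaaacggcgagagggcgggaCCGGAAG
Srsf3 promoter, chr17:29032460-29032659, plus strand: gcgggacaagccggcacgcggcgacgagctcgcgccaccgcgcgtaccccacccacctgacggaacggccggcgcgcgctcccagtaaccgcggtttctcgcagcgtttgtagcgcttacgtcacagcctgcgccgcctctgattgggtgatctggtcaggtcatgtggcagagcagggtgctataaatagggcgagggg
Srsf7 promoter, chr17:80207306-80207505, minus strand: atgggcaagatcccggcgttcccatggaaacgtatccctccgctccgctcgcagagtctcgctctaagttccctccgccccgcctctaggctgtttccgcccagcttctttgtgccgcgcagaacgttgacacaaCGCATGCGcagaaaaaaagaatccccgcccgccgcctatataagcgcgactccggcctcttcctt
Snrpn promoter, chr7:60450178-60450377, minus strand: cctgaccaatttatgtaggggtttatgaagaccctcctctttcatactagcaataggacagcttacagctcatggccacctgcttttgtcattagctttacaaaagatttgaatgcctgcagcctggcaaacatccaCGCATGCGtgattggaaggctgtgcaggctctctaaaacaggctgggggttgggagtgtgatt
Snrpn promoter, chr7:60005200-60005399, minus strand: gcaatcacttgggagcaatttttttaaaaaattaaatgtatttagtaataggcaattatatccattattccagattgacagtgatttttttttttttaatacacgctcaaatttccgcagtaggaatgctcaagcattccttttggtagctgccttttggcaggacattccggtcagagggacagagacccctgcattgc
Srsf12 promoter, chr4:33209072-33209271, plus strand: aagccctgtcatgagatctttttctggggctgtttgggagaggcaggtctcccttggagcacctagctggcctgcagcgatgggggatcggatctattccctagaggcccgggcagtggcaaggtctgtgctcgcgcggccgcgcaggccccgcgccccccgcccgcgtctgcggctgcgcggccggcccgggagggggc

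Hnrnpd carried a CCGGAAG match on the minus strand relative to transcription and Sf3a1 one that ends at the start site, while Srsf3 carried neither motif in these 200 bases. Srsf7 and the upstream start of Snrpn, like 2 other listed Snrpn starts, carried the palindrome CGCATGCG, although Srsf7 fell and Snrpn rose. Srsf12 and the downstream start of Snrpn carried neither motif in the 200 bases shown. The wider window of all 4 Snrpn starts held GCATGCG.

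The second question was how MGT cultures differed from lacZ cultures of the same day. Averaged over the 5 days, 34 of the 62 genes were lower and 8 higher with MGT, where 40.7% of all genes tested were lower and 23.2% higher. The differences were small, between -0.40 and 0.35, and the median was -0.10 against -0.09 over all genes. The split depends on the scaling of the arrays. With the 75th percentile taken over probes above background on every array 20 members were lower and 12 higher, where 31.2% and 30.2% of all genes were. After quantile normalization the members counted 19 and 14 (background 35.3% and 27.2%), and from the deposited values 19 and 10 (background 33.7% and 24.3%). Called in the same direction under the main setting, normexp, these 3 scalings and without the second day 14 lacZ array were 15 lower members and 4 higher ones. The lower ones were Hnrnpa0, Hnrnpa1l2-ps, Hnrnpab, Hnrnpd, Sf3a1, Sf3a3, Sf3b3, Sf3b4, Snrpa1, Snrpb, Snrpd1, Snrpe, Snrpf, Snrpg and Srek1, and the higher ones Akap17b, Pnisr, Sf3b1 and Srsf5. Within slide 1 (days 3 and 5) 18 members were lower and 3 higher, and within slide 2 (days 7 and 10) 16 and 9. The shares of all genes within each slide are not given here, so these counts cannot be set against a background.

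**Figure D4:**
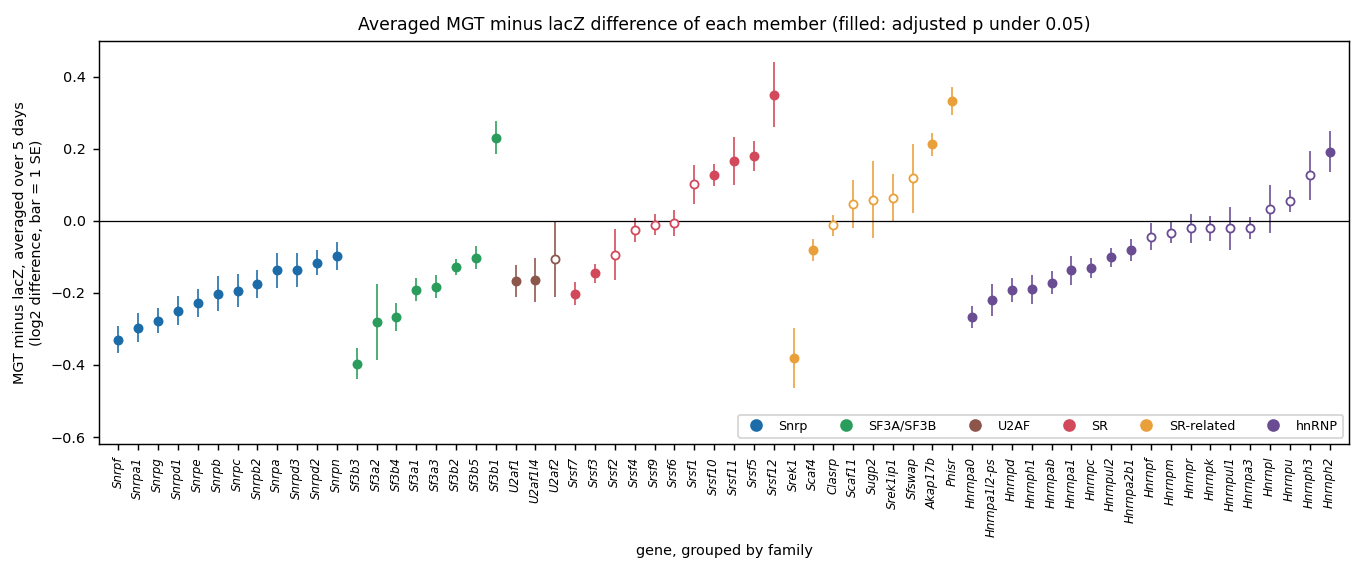
Averaged log2 difference of MGT minus lacZ over 5 days for each of the 62 genes (points, 1 SE as bars), grouped and coloured by family, with filled points for an adjusted p under 0.05. All 12 Snrp points lie below 0, and Sf3b1 is the only SF3A or SF3B point above 0.

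All 12 Snrp genes were lower with MGT (median -0.20), where 40.7% of all genes tested were lower and 23.2% higher. The Snrp median stayed below 0 after normexp and under the 3 other scalings. Of the 12 genes, 7 to 10 were then called lower and none higher, where 31.2% to 38.1% of all genes were lower and 19.1% to 30.2% higher. Snrpf is an example. With lacZ its level was 3.91 and 3.92 at day 3, 3.71 and 3.65 at day 5, 3.33 and 3.35 at day 7, 3.55 and 3.27 at day 10, and 3.40 and 3.52 at day 14. With MGT it was 3.61 and 3.53 at day 3, 3.24 and 3.39 at day 5, 3.01 and 3.11 at day 7, 3.10 and 3.02 at day 10, and 3.13 and 3.19 at day 14. Both MGT arrays lay below both lacZ arrays on each of the 5 days. The averaged difference of Snrpf was -0.33 ± 0.04 (1.26-fold, adjusted p = 5.13e-06). Snrpa1 (-0.30 ± 0.04), Snrpg (-0.28 ± 0.03), Snrpd1 (-0.25 ± 0.04) and Snrpe (-0.23 ± 0.04) followed, and Snrpn had the smallest difference, -0.10 ± 0.04 (adjusted p = 0.044). The call of Snrpn was lost under 24 of 32 alternative settings, where its difference ranged from -0.16 to -0.02 over the 32.

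Of the 60 members with all values, 11 had both MGT arrays below both lacZ arrays on all 5 days (17.3% of all genes with all values) and 6 of these were Snrp genes: Snrpa1, Snrpc, Snrpd1, Snrpe, Snrpf and Snrpg. The others were Hnrnpa0, Hnrnpab, Sf3a1, Sf3a3 and Srek1. The reverse held for 3 members, Akap17b, Pnisr and Sf3b1, against 10.8% of all genes. The first share is near that of all genes and the second, 3 of 60, is below it. The snRNP assembly factors outside the rule had 16 of 22 genes lower and 1 higher in the averaged comparison. Gemin6 (-0.53 ± 0.04) and Gemin5 (-0.44 ± 0.03) were among the lower ones. With the percentile over probes above background on every array 9 of the factors were lower and 3 higher. Of all genes tested 40.7% were lower and 23.2% higher, and 31.2% and 30.2% with that percentile. Proliferation markers were lower in 7 of 12 cases (median -0.27), fibroblast markers in 9 of 10 with 1 higher (median -0.49) and endothelial markers in 8 of 10 with none higher (median -1.52), while none of the 9 macrophage markers was called. The mean macrophage level was 1.30 and 2.92 on the 2 day 10 lacZ arrays. The mean endothelial level was between -1.09 and 0.28 on the lacZ arrays and between -2.84 and -0.50 on the MGT arrays. The part of these cells in the differences was not tested.

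In the SF3A and SF3B complexes 7 of 8 genes were lower with MGT, where 40.7% of all genes tested were. After normexp and under the other scalings 4 to 6 were lower, where 31.2% to 38.1% of all genes were. Sf3b3 had the largest difference of the whole set, -0.40 ± 0.04 (1.32-fold, adjusted p = 4.82e-06), and was called lower on days 3, 5, 10 and 14. Sf3b4, whose protein binds RNA next to the branch point, was -0.27 ± 0.04 and Sf3a2 -0.28 ± 0.11, or -0.17 with the second lacZ array of day 14 left out (adjusted p = 0.00458). For Sf3a2 the difference at day 14 was -0.84 with both day 14 lacZ arrays and -0.29 without the second (adjusted p = 0.0107 and 0.0609). Sf3b1 was higher with MGT, by 0.23 ± 0.05 (adjusted p = 0.00056). Its lacZ level was -0.47 and -0.46 at day 7 and -0.41 and -0.41 at day 10, against -0.18 and -0.18 and -0.33 and -0.21 in MGT. No MGT array of Sf3b1 overlapped the lacZ arrays of its day. U2af1 was lower by -0.17 ± 0.04 (adjusted p = 0.00467), and the difference of U2af2 was -0.11 ± 0.11 (adjusted p = 0.4), or -0.20 with that array left out (adjusted p = 0.0203). Neither U2af1 nor U2af1l4 was called under the 3 other scalings.

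SR and SR-related genes went both ways. Among 11 SR genes 4 were higher (Srsf12, Srsf5, Srsf11 and Srsf10) and 2 lower (Srsf7 and Srsf3), with a median of -0.01 that turns above 0 under the other scalings. Of all genes tested 23.2% were higher and 40.7% lower. Srsf5 was higher by 0.18 ± 0.04 (adjusted p = 0.00212), Srsf12 by 0.35 ± 0.09 (adjusted p = 0.00392) and Srsf10, a splicing repressor when dephosphorylated, by 0.13 ± 0.03. The call of Srsf11, at 0.17 ± 0.07, rested on the second day 14 lacZ array (adjusted p = 0.0417 with it and 0.062 without). Srsf7 was lower by -0.20 ± 0.03 (adjusted p = 9.99e-05) and Srsf3 by -0.15 ± 0.03 (adjusted p = 0.000266). A further Srsf7 probe, at base 1334, was not lower on each day. Its MGT arrays lay below the lacZ arrays at day 3 and above them at day 7, and overlapped them on the other days. The difference of Srsf1, 0.10 ± 0.05, did not pass the test, but it was called higher under 6 of 32 alternative settings. It ranged from -0.09 to 0.32 under these 32 settings. In its probes at bases 5019 and 5101 both MGT arrays lay above both lacZ arrays on days 5, 7, 10 and 14. On day 3 they lay below them. Srsf2 and Srsf6 had differences of -0.09 ± 0.07 and -0.01 ± 0.04 that did not pass the test. Without the first day 10 lacZ array that of Srsf2 was -0.15 and did (adjusted p = 0.0309).

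Pnisr, an SR-related protein of the nucleus, was called higher with MGT on days 3, 5, 10 and 14. Its lacZ level was 0.69 and 0.73 at day 3, 0.91 and 0.95 at day 5, 1.40 and 1.57 at day 7, 1.20 and 1.23 at day 10, and 1.06 and 0.93 at day 14. With MGT it was 1.04 and 1.08, 1.57 and 1.36, 1.70 and 1.74, 1.53 and 1.53, and 1.32 and 1.14 on the same days. No MGT array overlapped the lacZ arrays of its day, and the averaged difference was 0.33 ± 0.04 (1.26-fold, adjusted p = 6.16e-06). The difference at day 7, 0.23 ± 0.09, did not pass the test (adjusted p = 0.0534), and the one at day 14, 0.23 (adjusted p = 0.0436), was 0.17 without the second lacZ array (adjusted p = 0.213) and 0.14 without the first MGT array. Srek1 was lower by -0.38 ± 0.08 (adjusted p = 0.00142). Its day 14 lacZ arrays were 5.12 and 6.01, against 4.75 and 4.78 in MGT, and the day 14 difference was -0.80 with both lacZ arrays, -0.35 without the second (adjusted p = 0.002) and -1.25 without the first.

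In the averaged comparison 23.2% of all genes tested were higher and 40.7% lower, and 30.2% and 31.2% with the other percentile. The 20 kinases and other SR-related proteins outside the rule counted 4 higher and 5 lower, and 9 and 3 with the other percentile. One of them stood far from the rest: Srpk3, the SR protein kinase of muscle, was 4.56 ± 0.07 higher with MGT (23.6-fold, adjusted p = 1.17e-14). It rose by 5.10 in MGT at day 3 and 6.95 at day 14 relative to day 0. No member of the set differed between MGT and lacZ by as much as 1 on the log2 scale on any day.

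Among the hnRNP genes 9 of 19 were lower (47.4%) and 1 higher (5.26%) with MGT, where 40.7% of all genes tested were lower and 23.2% higher. The share of lower genes is thus near that of all genes. The hnRNP median of -0.04 turns above 0 with the other percentile (0.03), after quantile normalization (0.02) and in the deposited table (0.00). Hnrnpa0, whose protein binds AU-rich RNA, was lower by -0.27 ± 0.03 (adjusted p = 3.73e-06), Hnrnpd by -0.19 ± 0.03, Hnrnph1 by -0.19 ± 0.04 and Hnrnpab by -0.17 ± 0.03. Hnrnph2, a close relative of Hnrnph1, was higher by 0.19 ± 0.06 (adjusted p = 0.00973). Hnrnpa1 differed by -0.14 ± 0.04 (adjusted p = 0.00801) and Hnrnpa2b1 by -0.08 ± 0.03 (adjusted p = 0.0395), and the sign of the latter turned in the deposited table and after quantile normalization. Hnrnpl (0.03 ± 0.07) and Hnrnpu (0.05 ± 0.03) did not pass the test. Among the 26 hnRNP-like RNA-binding proteins outside the rule 15 were lower and 5 higher, and 9 and 7 with the other percentile. With that percentile 31.2% of all genes were lower and 30.2% higher. Fmr1, whose protein represses translation, was lower by -0.90 ± 0.07, more than any member.

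On single days fewer members were called. At day 3, 9 members were lower and 2 higher with MGT (background 18.1% and 12.3%). Srsf7 led with -0.46 ± 0.07 (adjusted p = 0.000272), then Sf3b3 with -0.37 and Snrpf with -0.35, and Pnisr and Akap17b were higher by 0.35 and 0.22. At day 5, 13 were lower and 4 higher (background 21.9% and 16.2%), led by Sf3b3 at -0.54 ± 0.10 and Pnisr at 0.53 ± 0.09. With the percentile over probes above background on every array the split at day 5 was 8 lower and 9 higher, where 17.8% and 19.5% of all genes were. After quantile normalization it was 7 and 8 (background 21% and 17.9%), and from the deposited values 4 and 4 (background 17.6% and 14.9%). At day 3 the percentile over those probes gave 6 lower and 4 higher (background 14.2% and 15.2%). Leaving out 1 array moved the count of 11 at day 3 to 3 without the first lacZ array, 5 without the second and 4 without the second MGT array. The count of 17 at day 5 moved to 9 and 8 without the first and second lacZ array and to 5 and 10 without the first and second MGT array.

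At day 7, 1 member was lower and 6 were higher, where 22.4% and 14.9% of all genes were. Whether day 7 differs from the other days was not tested. The higher members were Srsf1 (0.39 ± 0.12, adjusted p = 0.0225), Akap17b (0.33 ± 0.07), Srsf5 (0.33 ± 0.09, or 0.18 and not called without the first lacZ array), Sf3b1 (0.28 ± 0.10), Hnrnpu (0.22 ± 0.07) and Hnrnpm (0.20 ± 0.06), and the lower one was Snrpf (-0.28 ± 0.09). Srsf1, an SR protein needed for postnatal heart remodelling in mice, had levels of 1.89 and 2.03 in lacZ and 2.30 and 2.39 in MGT on that day. Proliferation markers had a mean level of 1.41 and 1.43 in lacZ and 1.44 and 1.47 in MGT at day 7, and 0 of 12 were called at that day. Both shares of members are below the background, and the count of 7 was 2 without either first array and 4 without either second array.

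At day 10, 19 members were lower and 4 higher (background 24.2% and 15.2%), and after quantile normalization 10 and 7 (background 21.1% and 18%). Snrpg (-0.41 ± 0.08), Sf3b3 (-0.39 ± 0.10) and Snrpe (-0.37 ± 0.09) were the lowest, and Hnrnph2 (0.47 ± 0.13) and Pnisr (0.32 ± 0.09) were among the higher ones. Srsf12 was higher by 0.75 ± 0.20, but its probe was well above background on only 1 of the 2 lacZ arrays of that day, and without the other, the first, the difference was 0.55 and the call was lost. The count of 23 was 10 without the first lacZ array and 8 without the second MGT array. At day 14, 27 were lower and 1 higher (background 29.3% and 18.2%), where slide and vector cannot be told apart. With the other percentile 13 were lower and 7 higher (background 22.1% and 24.3%), after quantile normalization 11 and 6 (background 22.2% and 23.6%), and from the deposited values 13 and 3 (background 21.7% and 21.3%). Sf3b4 was lower by -0.65 ± 0.09 (adjusted p = 5.17e-05), Hnrnpa0 by -0.50 ± 0.07 and Snrpg by -0.47 ± 0.08. The count of 28 was 24 without the second day 14 lacZ array and 17 without the first MGT array, and Sf3a2, Snrpf, Snrpd1, Snrpe, Snrpa1 and Pnisr were among the calls lost without the second lacZ array.

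The third question was whether the MGT difference changed from day 3 to day 14. It became more negative for 7 members and more positive for 1, against a background of 15.3% and 12.3% of genes. After quantile normalization 2 became more negative and 3 more positive (background 11.1% and 15.1%), and from the deposited values the 2 calls made were both positive (background 10% and 12.7%). The members were U2af1l4 (-0.59 ± 0.19), Sf3b4 (-0.51 ± 0.12), Hnrnph1 (-0.41 ± 0.13), Snrpg (-0.35 ± 0.11), Hnrnpc (-0.35 ± 0.09), Hnrnpa0 (-0.34 ± 0.09) and Srsf9 (-0.32 ± 0.09) on the negative side and Srsf7 (0.37 ± 0.10, adjusted p = 0.015) on the positive. Sf3b4 is the clearest case. Its level was 3.89 and 3.81 in lacZ and 3.63 and 3.79 in MGT at day 3, and 3.77 and 3.69 in lacZ and 3.10 and 3.07 in MGT at day 14. For Srsf7 the arms were 4.46 and 4.42 against 4.02 and 3.93 at day 3 and overlapped at day 14. Leaving out the second day 14 lacZ array ended the calls of Hnrnph1 and Snrpg (adjusted p = 0.0853 and 0.0787). Without that array the change of U2af1l4 was -0.28 (adjusted p = 0.0495) and that of Sf3b4 -0.55 (adjusted p = 0.0111), and without the first day 14 lacZ array U2af1l4 was at -0.89. The count of 8 ran from 3 without the second day 3 MGT array to 18 without the first day 14 lacZ array, was 4 without either day 3 lacZ array, and was 5 without the first day 3 MGT array or either day 14 MGT array.

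Several members had more than 1 probe, and these did not always move alike. The set had 102 probes, with 30 genes measured by several. In the comparisons with day 0 no gene had probes called in opposite directions, and 24 of the 30 had all probes lower in MGT at day 14. How often this holds among all genes with several probes was not counted. The ratio of each further probe to the probe that stands for the gene was fitted over all genes with several kept probes. It changed in lacZ at day 3 for 17 of 40 member probes (background 32.1% of 5718 probes), in lacZ at day 14 for 11 (background 37%) and between MGT and lacZ on average for 7 (background 25.9%), so the share of member probes was above the background in the first case and below it in the others.

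Hnrnpa3, a relative of Hnrnpa1 in RNA trafficking, had 7 probes that differed by position. Those at bases 644 and 858 are placed on transcript NM_198090 and the other 5 on NM_146130, so positions on the 2 transcripts are not on 1 scale. In lacZ at day 3 the 5 probes that start between bases 644 and 1796 differed from day 0 by -0.20 to -0.40 (4 of the 5 called), while those at bases 2451 and 5126 differed by -1.05 ± 0.08 and -1.36 ± 0.08. At day 14 the order was turned: in MGT the 5 upstream probes differed by -0.66 to -1.30 and the downstream ones by -0.34 ± 0.08 and -0.18 ± 0.08. The ratio of the probe at base 5126 to the one at base 1438 fell by 1.16 in lacZ at day 3 (adjusted p = 4.4e-06) and was 0.73 higher in MGT at day 14 than at day 0 (adjusted p = 7.6e-05). Averaged over days it was also 0.26 higher in MGT than in lacZ (adjusted p = 0.00068). The exon or UTR position of these probes was not looked up, as no annotation of the array's build was used here.

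**Figure D5:**
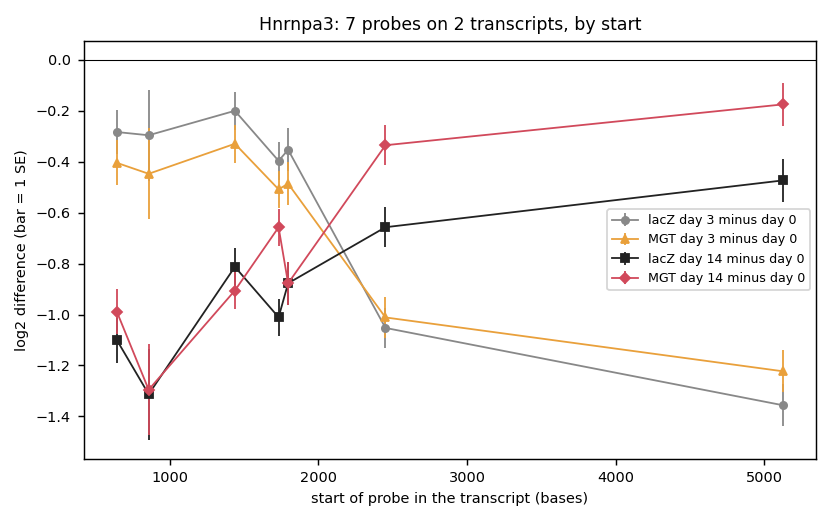
Log2 difference from day 0 (1 SE as bars) of 7 Hnrnpa3 probes by their start in the transcript each is placed on (2 transcripts), for lacZ and MGT at days 3 and 14. At day 3 the 2 probes farthest downstream lie lowest, near -1 and below, and at day 14 they lie highest.

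U2af1l4 was the member whose probes were called in opposite directions between MGT and lacZ. The probe used, at base 802 of transcript NM_170760, was lower with MGT at day 14 by -0.56 ± 0.14, and the probe at base 478 was higher by 0.38 ± 0.12. Without the second day 14 lacZ array these were -0.26 (adjusted p = 0.0266) and 0.13 ± 0.08, which was not called (adjusted p = 0.241). Averaged over days the differences were -0.16 and 0.14 with that array and -0.10 and 0.09 without it (adjusted p = 0.0127 and 0.0182). The probe at base 478 is shown because its 60 bases span 155 bases of the genome (chr7:31349607-31349761, mm9), so that it crosses an exon junction and can miss isoforms that lack it.
U2af1l4 probe at base 478: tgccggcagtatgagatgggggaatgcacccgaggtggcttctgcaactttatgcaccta

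Srsf7 had a second probe, at base 1334, whose ratio to the one at base 898 fell by 0.79 in lacZ at day 3. The day 0 value of this ratio rests on 1 array, as the probe at base 898 lacked the other. Averaged over days, the ratio was 0.27 higher in MGT than in lacZ (adjusted p = 0.0047). For Srsf3 the probe at base 2447 fell less than the one at base 739, with a ratio 0.65 higher in lacZ at day 3 (adjusted p = 0.00033) and 0.66 higher in MGT at day 14 (adjusted p = 0.00015). For Hnrnpa2b1 the probe at base 1587 rose relative to the one at base 1223, by 0.68 at day 3 in either arm (adjusted p = 0.00058 and 0.00053).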

How the data were processed

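Total RNA was hybridised to Agilent arrays, 1 Cy3-labelled sample each, and read with Agilent Feature Extraction 10.7.3.1, per the file headers. The values used were the processed spot intensity that the authors deposited, detrended per the file headers, which give the background method only as a code. A second deposited table of 1 intensity per gene name gave the gene names and served as an alternative; the submitters' processing notes name limma, and its scale and other steps are not given in the sources used here.

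Log2 intensities were set relative to the 75th percentile of the non-control spots of each array. Spots marked as outliers were left out. Kept were 38813 of 55681 probes, those with both arrays of some group well above background, and the kept probe with the highest mean stood for its gene (18062 genes). Probes of the array's annotation (mm9) were named through RefSeq accessions, symbols or unique synonyms. Another 1 probe that the array names differently from its member was left out.

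A model of 11 group means over 22 arrays was fitted with limma 3.58.1 in R 4.3.3 (lmFit, eBayes; residual degrees of freedom 11, prior 1.66), with Benjamini-Hochberg adjustment over all genes and a threshold of 0.05. The same code was tested on simulated data. The members and lists were chosen with earlier results of these data known. Named were up to 6 called members per family of 1 sign on all 5 days in the averaged comparison, the 3 largest calls of each direction per day or against day 0, 4 for the change, fixed members such as Srsf3 and Snrpn, and up to 3 called genes per other list; others were named after their values were seen.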

Additional observations from a re-analysis of the deposited data

Results flagged for a closer look

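These members were singled out because their difference between MGT and lacZ was not the same at day 3 and day 14 by the test of that change (log2, limma). The change was -0.59 for U2af1l4, -0.51 for Sf3b4, -0.41 for Hnrnph1, -0.35 for Snrpg, -0.35 for Hnrnpc, -0.34 for Hnrnpa0, -0.32 for Srsf9 and 0.37 for Srsf7. Without the second day 14 lacZ array, whose signal was the weakest, the change was -0.28 for U2af1l4 (adjusted p = 0.0495) and -0.55 for Sf3b4, and Hnrnph1 and Snrpg lost their call. Without the first it was -0.89 for U2af1l4. Day 3 and day 14 arrays lie on different slides, so the change and the slide cannot be told apart. Under the settings tried, no member kept its call for this change in all of the other scalings and without the second day 14 lacZ array.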

How the results depend on the processing

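The counts of members called against day 0 moved by less than 1.5 times under each alternative run, and leaving out 1 array gave 43 to 46 (lacZ day 3), 45 to 48 (MGT day 3), 53 to 56 (lacZ day 14) and 54 to 56 (MGT day 14). The differences between MGT and lacZ depended more on the processing. The averaged count of 42 was 21 within slide 1 and 25 within slide 2, and 35 to 46 without 1 array. After normexp correction 5, 9, 1 and 10 members were called on days 3, 5, 7 and 10, and 4 for the change. In the deposited table these were 4, 8, 11 and 16 on days 3, 5, 10 and 14, and 2 for the change. Quantile normalization gave 11 members at day 7, 17 at day 14 and 5 for the change, and the mean of all kept probes gave 4 for the change. After quantile normalization 20.1% of all genes were lower and 16.9% higher at day 7. At day 14 these shares were 22.2% and 23.6%, and for the change 11.1% and 15.1%. Fits on the arrays of the comparison alone called 7367, 5766 and 2699 of the 18062 genes on days 3, 7 and 14. They called 3294 genes for the change and 3286 at day 10. In these fits the count of members was 17, 3 and 1 on days 3, 7 and 14, and 1 for the change. At day 10 it was 0 in limma, where 15 members had an unadjusted p under 0.05. Leaving out 1 array gave 3 to 8, 5 to 10, 2 to 4, 8 to 19 and 17 to 39 on the 5 days in turn, and 3 to 18 for the change, with 1 array left in an arm that is assumed to vary like the other groups.

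Over 183 results on named members, 2735 alternatives left the result as it was, called or not called. Another 340 lost a call, 31 gained one and 7 turned the sign of a called result. A result that was not called and stayed so counts among the 2735 even where its sign turned. In the deposited table the change was 0.18 for U2af1l4 and 0.0686 for Snrpg, the averaged difference 0.0006 for Hnrnpa2b1 and 0.0738 for U2af1l4, and the day 14 difference of U2af1l4 0.17. Hnrnpa2b1 was 0.0177 after quantile normalization. Srsf7 was 0.0398 in lacZ at day 3 with the mean of probes, where 1 of 2 probes is missing on a day 0 array. The cause of the others was not tested.

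Replicate numbers do not pair the arrays: over 55 pairs of groups, deviations of same-numbered arrays correlated between -0.0907 and 0.156. With a replicate block the counts were 40 (averaged), 13, 18, 8, 24 and 30 on the 5 days, 8 for the change, and 48, 49, 55 and 57 against day 0. Slide as a random block could not be fitted, as each group lies on 1 slide. Probe fits and shares of all genes under other scalings were added after seeing the data. With only 2 arrays a group, small differences have wide errors, and the dim probes of Srsf12 and Hnrnph3 were not well above background on every array.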
